A study of Mus musculus with 6 samples.

Results

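The Ikaros family is a group of zinc finger transcription factors encoded in the mouse by 5 genes, Ikzf1 (Ikaros), Ikzf2 (Helios), Ikzf3 (Aiolos), Ikzf4 (Eos) and Ikzf5 (Pegasus). The 5 genes were chosen by family membership, and all 5 were found among the 32285 genes of the tables. The family itself was selected on a readout: an earlier result on these libraries had placed Ikzf2 among the genes that were lower in CD8 T cells on the diet. The diet values of Ikzf2 in CD8 T cells are therefore given below as a description, without a test. Mouse spleen cells were profiled by droplet single-cell RNA sequencing with 3′ counting of unique molecular identifiers (UMIs, each standing for 1 captured RNA molecule). The mice were wild-type C57BL/6, 6 weeks old at the start, and were kept for 7 weeks on ND (the control diet, 3 libraries) or on MCDHFD (the diet used as a model of the fatty liver disease MASH, 3 libraries). The labels do not spell out the diet names and do not say whether a library came from 1 mouse or from several.

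Ikaros family proteins bind DNA through an amino-terminal group of zinc fingers and pair with each other through a carboxy-terminal group. They recruit chromatin complexes, above all the NuRD remodelling and deacetylase complex, and also Sin3 and CtBP corepressors. Ikaros is needed for lymphocyte development, Aiolos is best known in B cells, and Helios and Eos are known from Foxp3-positive regulatory T cells. Ikaros and Aiolos are the proteins that thalidomide-type drugs send to the CRBN ubiquitin ligase. In the GENCODE M21 annotation of mm10, Ikzf1 lies on the plus strand at chr11:11685003-11772926. The other members lie on the minus strand, Ikzf2 at chr1:69531214-69687245, Ikzf3 at chr11:98464902-98546031, Ikzf4 at chr10:128630843-128645991 and Ikzf5 at chr7:131388652-131410521. Ikzf2 overlaps an antisense gene and a pair of intronic genes, and Ikzf5 overlaps Fgfr2 and Pstk. Counts taken near the 3′ end do not separate the isoforms of Ikaros, so every value here is for a whole gene.

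Cells with at least 1000 UMIs and at most 10% mitochondrial UMIs were kept, 31542 in all, between 3278 and 6625 per library. Total depth was between 21259837 and 62238012 UMIs per library. Classes were set by marker UMIs: B cells by at least 2 UMIs of Cd79a, CD8 T cells by Cd3e with Cd8b1, CD4 T cells by Cd3e with Cd4, gamma delta T cells by Trdc with Cd3e, NK cells by Ncr1 without Cd3e, monocytes or macrophages by Csf1r, dendritic cells by Flt3 with at least 3 UMIs of H2-Aa, and erythroid cells by Klf1. The gates gave 17107 B, 3783 CD8 T, 2362 Foxp3-negative and 319 Foxp3-positive CD4 T, 282 gamma delta T, 916 NK, 3055 monocyte or macrophage, 879 dendritic and 272 erythroid cells. The gates overlap, and between 3.99% and 11.9% of cells per library met the gates of more than 1 lineage. Markers outside the gates were checked by class. The sum of gamma delta receptor genes was between 172 and 454 CPM (UMIs scaled to 1000000 UMIs of the class) in gamma delta T cells against 2.51 to 11.6 CPM in CD8 T cells. The dendritic gate did not hold dendritic cells alone: its summed B cell markers were 9257 to 24168 CPM, above the B cell gate in 6 of 6 libraries, against 353 to 494 CPM of dendritic markers. In the monocyte or macrophage gate summed neutrophil markers (9269 to 34611 CPM) exceeded monocyte or macrophage markers (7688 to 9893 CPM) in 5 of 6 libraries. Values of both gates are therefore those of mixed cells. ND replicate 2 and MCDHFD replicate 3 were deposited with a filtered list of barcodes and the other 4 libraries with an unfiltered one, and the filtered libraries stood apart within each diet, with a median mitochondrial share of 0.569% and 1.68% against 3.73% to 3.96%. Any pair of libraries shared between 0 and 18 barcodes of kept cells. Of the 3278 kept barcodes of ND replicate 2, at most 95 were in any 1 unfiltered list, and MCDHFD replicate 3 likewise had few. For ND replicate 3 it was 4962 of 4962 in another unfiltered list. For MCDHFD replicates 1 and 2 it was 6624 of 6625 and 6552 of 6594. ND replicate 1 lay between, with 2429 of 6548. The filtered libraries thus differed in their barcodes too, and list form cannot be told apart from that. The cause was not tested. Since the filtered libraries stood apart, the form of the list is a term of the main fit. Values of the 4 libraries with unfiltered lists are given beside the results it touches.

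Levels are CPM, with UMIs summed over the cells of 1 library. They are compared between classes for 1 gene at a time, since genes differ in how well their 3′ ends are captured. In summed cells, fewer expressing cells and less RNA per expressing cell cannot be told apart. Barcodes with 1 to 100 UMIs, taken here as free RNA, carried each member too, Ikzf1 at 235 to 357 CPM and Ikzf2 at 33.8 to 41.8 CPM. Some classes lie below these levels, so they are given for comparison and are not a floor, and the part of free RNA in the class values was not tested.

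**Figure D1:**
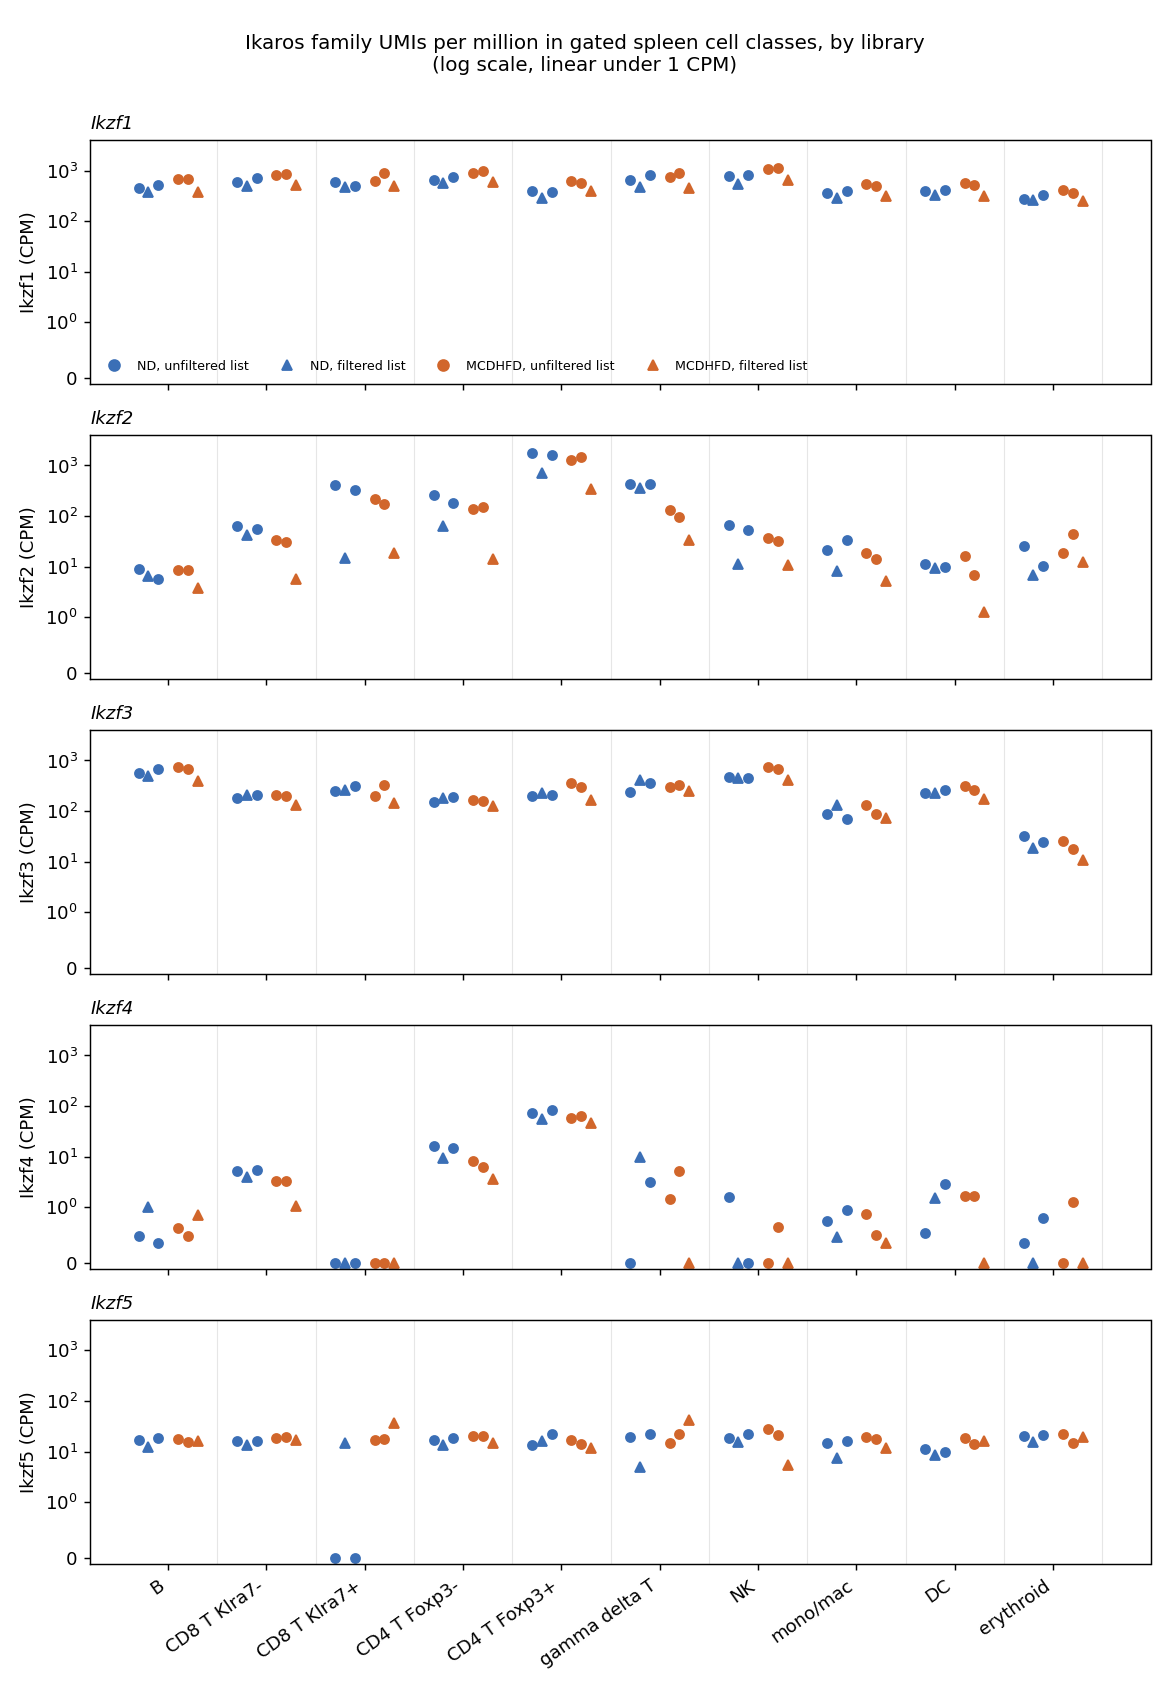
Level of each Ikaros family member (vertical axis, CPM, logarithmic above 1 and linear below) in 10 classes of spleen cells (horizontal axis). Each point is 1 library, blue for ND and orange for MCDHFD, triangles for filtered barcode lists. Ikzf1 stays between 246 and 1106 CPM in every class, while Ikzf2 and Ikzf4 peak in Foxp3-positive CD4 T cells.

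Ikzf1, the founding member, had UMIs in all classes at a narrow range of levels. Its mean over the 6 libraries was highest in NK cells (829 CPM), followed by Foxp3-negative CD4 T cells (732 CPM), gamma delta T cells (672 CPM) and Klra7-negative CD8 T cells (660 CPM). B cells (511 CPM), Foxp3-positive CD4 T cells (439 CPM), dendritic cells (418 CPM) and monocytes or macrophages (397 CPM) came next, and erythroid cells were lowest (312 CPM, within the range of free RNA). Klra7-negative CD8 T cells were above B cells, and monocytes or macrophages above erythroid cells, in 6 of 6 libraries (exact two-sided paired permutation test, p = 0.03125 for each). That is the smallest p that 6 libraries allow, and over the 40 neighbour pairs of all members no adjusted p fell below 0.114. The other neighbours in this order did not hold the same direction in 6 libraries.

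Ikzf3, the member best known in B cells, ran from 591 CPM in B cells and 528 CPM in NK cells down to 21.4 CPM in erythroid cells. NK cells were above gamma delta T cells (315 CPM) in 6 of 6 libraries, and gamma delta T cells were above Foxp3-positive CD4 T cells (244 CPM) in 5 of 6. Foxp3-positive CD4 T cells and dendritic cells (243 CPM) could not be ordered, with 3 of 6 libraries each way. The dendritic value comes from the gate with more B cell markers than the B cell gate, and B cells had the highest Ikzf3. Klra7-negative CD8 T cells (190 CPM), Foxp3-negative CD4 T cells (163 CPM), monocytes or macrophages (96.8 CPM) and erythroid cells followed, each below the class before it in 6 of 6 libraries (exact two-sided paired permutation test, p = 0.03125 for each step).

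Ikzf2 had the widest range between classes. Its mean was 1206 CPM in Foxp3-positive CD4 T cells, 248 CPM in gamma delta T cells, 135 CPM in Foxp3-negative CD4 T cells and 38.6 CPM in Klra7-negative CD8 T cells. The CD8 mean, like that of NK cells (35.3 CPM), lay within the range of free RNA. Erythroid cells (19.6 CPM), monocytes or macrophages (16.8 CPM), dendritic cells (9.05 CPM) and B cells (7.02 CPM) lay below it. None of these classes is read as expressing Ikzf2 from the level alone. Cells with at least 5 Ikzf2 UMIs made up 0% to 3.91% of Klra7-negative CD8 T cells per library. In NK cells the range was 0% to 3.03%. Whether free RNA could give such cells was not tested. Foxp3-positive CD4 T cells exceeded gamma delta T cells in 6 of 6 libraries, whereas gamma delta T cells exceeded Foxp3-negative CD4 T cells in 4 of 6.

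Ikzf4 was concentrated in CD4 T cells. Its mean was 63.6 CPM in Foxp3-positive and 9.70 CPM in Foxp3-negative CD4 T cells, 3.72 CPM in Klra7-negative CD8 T cells and 3.26 CPM in gamma delta T cells, and under 1.4 CPM in each of the remaining classes. Foxp3-positive exceeded Foxp3-negative CD4 T cells, and these exceeded Klra7-negative CD8 T cells, in 6 of 6 libraries. Ikzf5, the most divergent member, was even across classes, with means between 13.1 CPM in dendritic cells and 20.9 CPM in gamma delta T cells, and none of its 8 neighbour steps had the same sign in 6 libraries.

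The next comparison set Foxp3-positive against Foxp3-negative CD4 T cells of the same library. Foxp3 is the lineage factor of regulatory T cells. Ikzf2 in Foxp3-positive cells was 1778, 709 and 1635 CPM in ND replicates 1 to 3 and 1268, 1498 and 349 CPM in MCDHFD replicates 1 to 3. In Foxp3-negative cells it was 259, 63.9 and 181 CPM on ND and 137, 154 and 14.3 CPM on MCDHFD. Every library had the higher value in the Foxp3-positive cells, and the filtered library of each diet was the lowest of its diet in both classes. The difference was 3.25 on the log2 scale (SE 0.22, adjusted p = 0.000108, edgeR quasi-likelihood test with library as a block and Benjamini-Hochberg adjustment over all genes tested).

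Ikzf4 in Foxp3-positive cells was 72.3, 55.5 and 83.7 CPM on ND and 59.2, 63.9 and 47.1 CPM on MCDHFD, with no overlap with the Foxp3-negative cells, whose highest library had 16.3 CPM. It differed by 2.67 on the log2 scale (SE 0.21, adjusted p = 2.37e-09). Ikzf3 was higher in Foxp3-positive cells, by 0.47 (SE 0.11, adjusted p = 0.006), and higher in 6 of 6 libraries. Ikzf1 went the other way, lower in Foxp3-positive cells of 6 of 6 libraries with a log2 difference of -0.85 (SE 0.09, adjusted p = 5.72e-07). Ikzf5 had a log2 difference of -0.25 (SE 0.25, adjusted p = 0.686). Thus 4 of 5 members passed the test, against 8.86% of the 8646 genes tested.

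**Figure D2:**
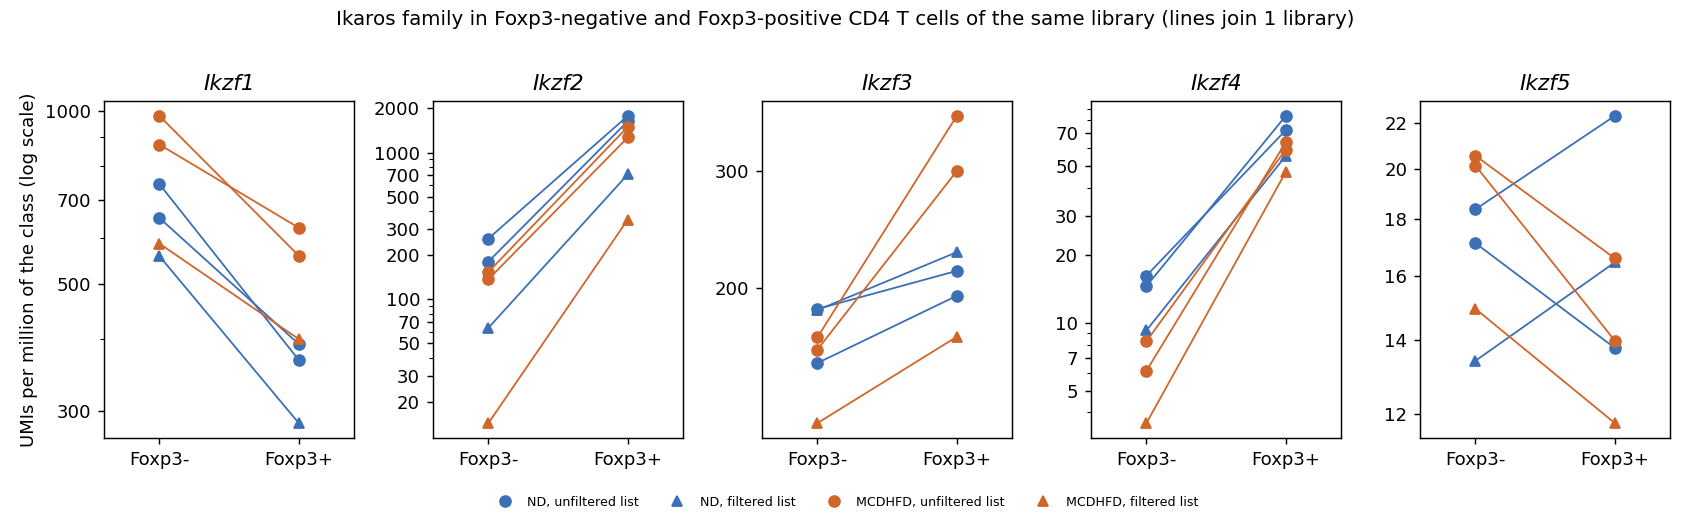
Level of each member (vertical axis, CPM, log scale, a separate range per panel) in Foxp3-negative and Foxp3-positive CD4 T cells. Lines join both classes of 1 library. All 6 lines rise for Ikzf2, Ikzf3 and Ikzf4, all 6 fall for Ikzf1, and those of Ikzf5 go both ways.

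Ikzf3 lost its call without MCDHFD replicate 1 (0.36, adjusted p = 0.0602) and without MCDHFD replicate 2 (0.39, adjusted p = 0.0662). The gate was also read through the regulatory T cell list: 22 of its 23 tested genes were higher in Foxp3-positive cells, with a list median of 2.03 against -0.01 over all genes. That list includes Foxp3 itself, so its count describes the gate. None of the 14 NuRD, 7 Sin3 or CtBP and 6 CRBN ligase genes tested passed the edgeR test in this split, and DESeq2 called none. An unadjusted edgeR p under 0.05 was found for 2, 0 and 1 of them, and for 1634 of all 8646 genes tested.

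Within CD8 T cells, the gene for the Ly49 receptor Klra7 marks a small subset with features of innate-like or regulatory CD8 T cells. It held 79 cells, between 8 and 18 per library. Ikzf2 in these cells was 408, 14.6 and 328 CPM on ND and 220, 170 and 18.3 CPM on MCDHFD. In Klra7-negative CD8 T cells it was 64.003, 43.1 and 54.8 CPM on ND and 33.2, 31.0 and 5.73 CPM on MCDHFD. The subset was higher in 5 of 6 libraries, ND replicate 2 being the exception. The values of the filtered libraries rest on few molecules. ND replicate 2 had 2 Ikzf2 UMIs in 12 cells and MCDHFD replicate 3 had 1 UMI in 8 cells. The libraries with unfiltered lists had 30 to 62 UMIs each. The log2 difference was 2.27 (SE 0.21, adjusted p = 1.89e-15), where 4.16% of the 8553 genes tested were called. Without MCDHFD replicate 3 it was 2.32 with an adjusted p = 0.0983. Ikzf1 (-0.21), Ikzf3 (0.33) and Ikzf5 (-0.37) did not pass, and Ikzf4 had no UMI in any of the 79 cells.

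Although the subset made up 1.08% to 3.40% of CD8 T cells, it carried between 12.1% and 15.5% of the Ikzf2 UMIs of CD8 T cells in the 4 libraries with unfiltered lists, and 1.77% and 3.03% in the filtered libraries. Of the list of Ly49-positive and innate-like genes, 14 of 18 tested were higher in the subset and none was lower, with a median of 2.00 against -0.08 over all genes. The gate gene is on this list. Among its called members, Il2rb, a subunit of the interleukin 2 and 15 receptors, was higher by 1.95 and the T-box factor Eomes by 2.00. Both were named after their values were seen.

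The diet comparison began with gamma delta T cells, where Ikzf2 had the smallest p of all 5686 genes tested. Its level was 427, 364 and 435 CPM in ND replicates 1 to 3 and 129, 97.8 and 34.3 CPM in MCDHFD replicates 1 to 3. The diets did not overlap, with means of 409 ± 38.8 CPM on ND and 87.1 ± 48.3 CPM on MCDHFD (SD, n = 3 libraries each). MCDHFD libraries all lay below ND libraries for 3.73% of genes in this class. The log2 difference was -2.18 (SE 0.22, adjusted p = 5.35e-08, edgeR with diet and list form), and 0.422% of genes were called. With diet alone it was -2.15 with an adjusted p = 0.235, and in the 4 libraries with unfiltered lists -1.98 with an adjusted p = 7.01e-05.

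Of the 282 gamma delta cells, many also had Cd8b1 or Cd4, so the cells overlap in part with those in which the family was chosen. In the 160 cells without either, Ikzf2 was 663, 513 and 618 CPM on ND and 264, 174 and 15.1 CPM on MCDHFD. The 15.1 CPM of MCDHFD replicate 3 was the level of 1 UMI in this gate. The diets again did not overlap, but how often that held over all genes of these cells was not counted. The log2 difference there was -1.93 (adjusted p = 0.00107), a comparison added after the data were seen. Leaving out cells that met the gates of more than 1 lineage gave -1.91 with an adjusted p = 0.0577.

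The share of gamma delta cells with Ikzf2 moved with the level. With every cell thinned to 1000 UMIs, 20.3%, 20.7% and 36.6% of cells carried an Ikzf2 UMI on ND and 8.06%, 6.67% and 0% on MCDHFD. The last value is 0 of 26 cells, which allows up to 11.5% of cells with a UMI at the thinned depth, for counting error only, and 3 of the same 26 cells had an Ikzf2 UMI before thinning. The exact permutation test of 3 against 3 gave p = 0.1, the smallest it allows. Unthinned shares averaged 57.4% and 21.9%. In B cells the thinned share was 0.28% to 0.46%, and whether those UMIs are free RNA was not tested. Median depth per gamma delta cell was 6115 to 7265 UMIs on ND and 4713 to 9835.5 UMIs on MCDHFD, and 3775.5 to 6068 UMIs in B cells. Cells with at least 5 Ikzf2 UMIs made up 17.2%, 13.8% and 24.4% of gamma delta cells on ND and 12.9%, 10.0% and 0% on MCDHFD.

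**Figure D3:**
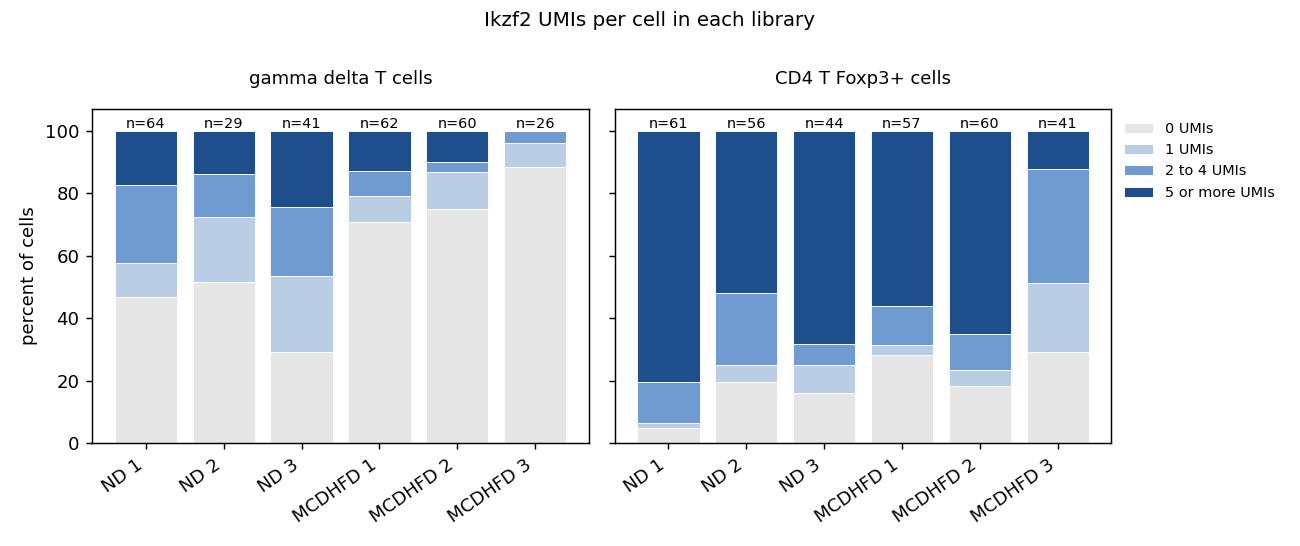
Percent of cells (vertical axis) with 0, 1, 2 to 4 and 5 or more Ikzf2 UMIs in each library (horizontal axis), for gamma delta T cells and Foxp3-positive CD4 T cells, with the number of cells above each bar. Gamma delta cells without an Ikzf2 UMI make up 29.3% to 51.7% on ND and 71.0% to 88.5% on MCDHFD.

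Other measures were taken in the same gamma delta cells. The chemokine gene Ccl5 was 2199, 5745 and 3562 CPM on ND and 1234, 1902 and 639 CPM on MCDHFD, without overlap. In those without Cd8b1 or Cd4 it was 3078 to 7219 CPM on ND and 1404 to 2290 CPM on MCDHFD, again without overlap. The share of them with Cd8b1 was 17.2% to 31.7% on ND and 23.1% to 40.3% on MCDHFD. Summed gamma delta receptor genes were 250 to 454 CPM on ND and 172 to 241 CPM on MCDHFD, and summed B cell markers 410 to 913 and 650 to 1792 CPM. Their part in the result was not tested. Ikzf1 (0.09, SE 0.17) and Ikzf3 (-0.14, SE 0.20) did not pass in gamma delta cells, and Ikzf4 and Ikzf5 did not pass the filter on low counts. The genes called with Ikzf2 in this class included the chemokine gene Xcl1 (-2.05, adjusted p = 0.00671), the T and NK cell surface gene Cd7 (-0.98, adjusted p = 0.0411) and the NuRD helicase gene Chd3 (-0.89, adjusted p = 0.0318), which were picked from the lists after their values were seen. DESeq2 called none of these 3.

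**Figure D4:**
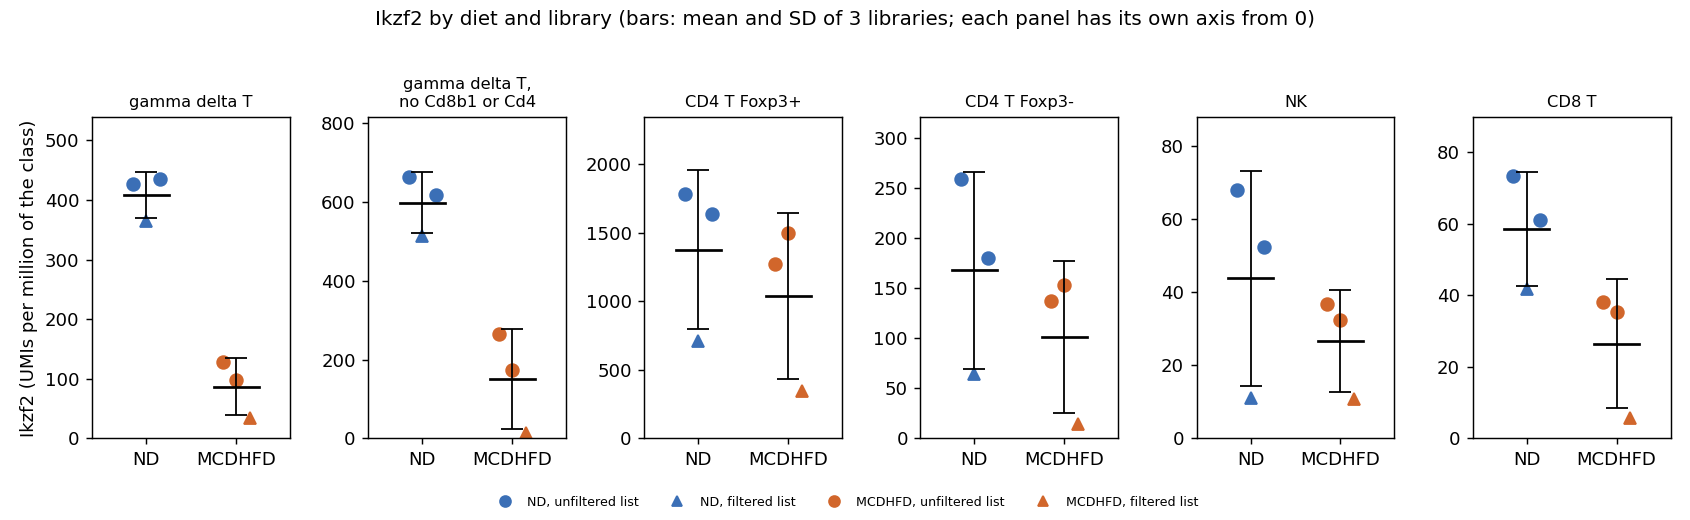
Ikzf2 level (vertical axis, CPM, from 0 with its own range per panel) by diet in 6 classes. Points are libraries, triangles those with filtered lists, and bars show the mean and SD of 3 libraries. The diets do not overlap in gamma delta T cells, with or without Cd8b1- or Cd4-bearing cells, nor in CD8 T cells, the class in which the family was chosen. Of all genes tested, 3.73% in gamma delta T cells and 2.54% in CD8 T cells lay lower on MCDHFD without overlap.

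In Foxp3-positive CD4 T cells the same gene overlapped between diets, and its log2 difference was -0.57 (SE 0.21, adjusted p = 0.135, with 3.09% of 6121 genes called). The thinned share of these cells with an Ikzf2 UMI averaged 59.6% on ND and 47.6% on MCDHFD and overlapped as well. The diet effect in gamma delta cells exceeded that in Foxp3-positive cells by -1.90 on the log2 scale (SE 0.26, adjusted p = 4.2e-05, edgeR test of class by diet, in which 0.645% of genes were called). This pair of classes was added after the data were seen, and part of the gamma delta cells also met the CD8 gate in which the family was chosen. In Foxp3-negative CD4 T cells Ikzf2 differed by -0.96 (SE 0.36, adjusted p = 0.364). In those without Il2ra, Ctla4 or Tnfrsf18 UMIs, a gate added after the data were seen, it was 164, 43.8 and 62.9 CPM on ND and 42.2, 25.7 and 5.83 CPM on MCDHFD. The diets did not overlap there, but how often that held over all genes of this gate was not counted. In all Foxp3-negative cells, where Ikzf2 overlapped between diets, 4.39% of genes lay lower on MCDHFD without overlap. The log2 difference in the narrower gate was -1.91 (SE 0.58, adjusted p = 0.31). The gamma delta effect differed from that in all Foxp3-negative cells by -1.67 (SE 0.59, adjusted p = 0.891, with 0.0949% of genes called), and by -1.37 (adjusted p = 0.000329) once class by list form was added. Between Foxp3-positive and Foxp3-negative cells the diet effect differed by 0.40 (SE 0.45, adjusted p = 0.867, with 0.25% of genes called), so a difference was not detected. The share of CD4 T cells with Foxp3 was 13.4% to 16.3% on ND and 7.75% to 11.4% on MCDHFD (exact permutation test, p = 0.1, the smallest possible). With cells thinned to 1000 UMIs it averaged 4.28% and 2.78% and overlapped (exact permutation test, p = 0.3).

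In NK cells, Ikzf2 was 68.0, 11.1 and 52.4 CPM on ND and 36.9, 32.5 and 10.8 CPM on MCDHFD. The 4 libraries with unfiltered lists separated by diet, while the filtered pair were close to each other. The log2 difference was -0.87 (SE 0.22, adjusted p = 0.0351, with 4.35% of 8727 genes called), and -0.69 (adjusted p = 0.71) with diet alone. The call was lost without ND replicate 1 (-0.62, adjusted p = 0.317), without MCDHFD replicate 1 (-0.92, adjusted p = 0.204) and without MCDHFD replicate 2 (-0.75, adjusted p = 0.333). Summed neutrophil markers in the NK gate were 197 to 854 CPM in 4 libraries and 11929 and 13246 CPM in ND replicates 1 and 2, and their part was not tested.

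In CD8 T cells, where the family was chosen, Ikzf2 was 73.3, 41.7 and 60.9 CPM on ND and 38.2, 35.5 and 5.85 CPM on MCDHFD, a fitted log2 difference of -1.38 (SE 0.39). Free RNA, at 33.8 to 41.8 CPM, was near or above several of these values. In Klra7-negative CD8 T cells with the memory-associated chemokine gene Ccl5 it was 29.9, 37.9 and 74.1 CPM on ND and 16.0, 19.7 and 5.95 CPM on MCDHFD, and in those without Ccl5 81.7, 44.8 and 47.4 CPM against 41.7, 37.0 and 5.66 CPM. In the Klra7-positive subset the unfiltered libraries averaged 368 CPM on ND and 195 CPM on MCDHFD, and the filtered ones had 14.6 and 18.3 CPM. The share of CD8 T cells with Klra7 was 2.22% to 3.40% on ND and 1.08% to 2.16% on MCDHFD, and thinned shares, averaging 0.961% and 0.465%, overlapped. All these values come from the cells that chose the family. In the remaining classes Ikzf2 was not called: B cells (-0.12), monocytes or macrophages (-0.75), dendritic cells (-0.36) and erythroid cells (0.68), where 6.38%, 1.12%, 1.76% and 0.141% of genes were called.

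**Figure D5:**
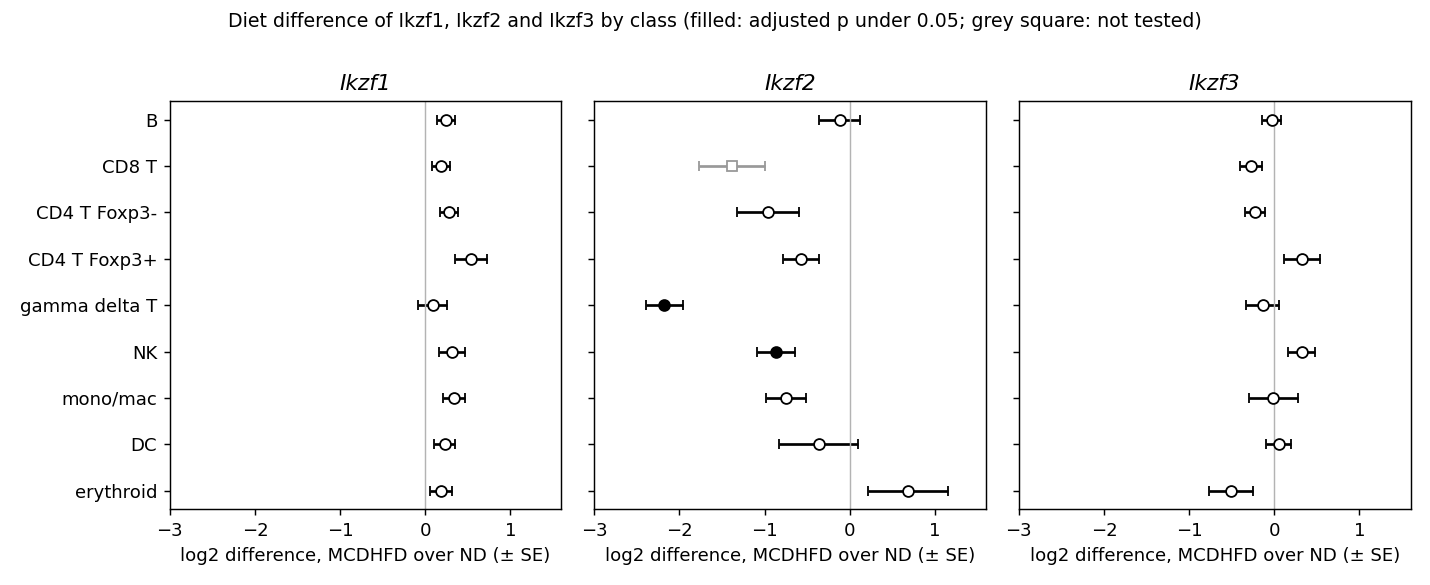
Fitted log2 difference of MCDHFD over ND with its standard error (horizontal axis) for Ikzf1, Ikzf2 and Ikzf3 in 9 classes (vertical axis). Filled points passed an adjusted p under 0.05, open ones did not, and the grey square is the CD8 T cell value of Ikzf2, which was not tested. Ikzf2 lies below 0 in 8 of 9 classes, Ikzf1 above 0 in 9 of 9.

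Ikzf4 was lower on MCDHFD in Foxp3-negative CD4 T cells, at 16.3, 9.28 and 14.6 CPM on ND and 8.31, 6.13 and 3.58 CPM on MCDHFD. The diets did not overlap, as held in that direction for 4.39% of the 10173 genes. The log2 difference was -1.17 (SE 0.26, adjusted p = 0.0289, with 2.39% of genes called), with diet alone -1.16 (adjusted p = 0.9995), and in the 4 libraries with unfiltered lists -1.12 (adjusted p = 0.0405). Cells without Il2ra, Ctla4 or Tnfrsf18 UMIs, which carry fewer signs of regulatory T cells, gave 12.8, 6.74 and 7.48 CPM against 2.91, 1.63 and 2.43 CPM and a log2 difference of -1.92 (adjusted p = 0.0218), in a gate added after the data were seen. In the 4 libraries with unfiltered lists free RNA carried Ikzf4 at 2.62 to 3.70 CPM. The MCDHFD values of the gate without Il2ra, Ctla4 or Tnfrsf18 lay within or below that range, as did the 3.58 CPM above. Summed regulatory T cell markers in the Foxp3-negative gate were 94.9 to 114 CPM on ND and 80.6 to 87.3 CPM on MCDHFD. The part of free RNA or of these markers was not tested. DESeq2 gave an adjusted p of 0.137, and leaving out single libraries gave adjusted p between 0.0388 and 0.195, with the call lost without each ND library and without MCDHFD replicates 1 and 2. In Foxp3-positive cells Ikzf4 had a log2 difference of -0.36 (SE 0.27, adjusted p = 0.572) and in CD8 T cells of -1.04 (SE 0.33, adjusted p = 0.17, with 1.09% of genes called). In CD8 T cells it was lower on MCDHFD without overlap, as held in that direction for 2.54% of genes. Ikzf4 was too low for the filter in the other classes except B cells.

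Ikzf1 was not called by edgeR in any of the 9 classes, nor by DESeq2. Its unadjusted edgeR p was under 0.05 in 4 classes: B cells, both CD4 classes and monocytes or macrophages. Of all genes tested, 3227 of 13798 had such a p in B cells and 1749 of 11158 in monocytes or macrophages. In Foxp3-negative and Foxp3-positive CD4 T cells 1518 of 10173 and 924 of 6121 did. The fitted difference of Ikzf1 was above 0 in each of the 9 classes. It ran from 0.09 in gamma delta T cells to 0.54 (SE 0.19, adjusted p = 0.112) in Foxp3-positive CD4 T cells. There it was 392, 286 and 368 CPM on ND and 626, 559 and 400 CPM on MCDHFD, without overlap, as held in that direction for 5.59% of genes. In B cells it was 448, 382 and 524 CPM on ND and 668, 667 and 377 CPM on MCDHFD, so the unfiltered libraries separated by diet and the filtered ones did not. In the 4 libraries with unfiltered lists it was called in B cells (0.37, adjusted p = 0.0107, with 23.3% of genes called), Foxp3-negative (0.37, adjusted p = 0.0398, 4.4% called) and Foxp3-positive CD4 T cells (0.58, adjusted p = 0.0494, 6.97% called) and NK cells (0.31, adjusted p = 0.0434, 11.4% called). Beside these shares of called genes, and with free RNA in the same libraries at 235 to 282 CPM on ND and 354 to 357 CPM on MCDHFD, nothing particular to Ikzf1 is read from these calls.

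Ikzf3 and Ikzf5 were called in no class by edgeR or DESeq2, with 0 and 1 classes at an unadjusted p under 0.05. For Ikzf5 the class was dendritic cells, where 1298 of 9673 genes had such a p. The differences of Ikzf3 ran from -0.51 in erythroid cells to 0.32 in NK cells. In the 4 libraries with unfiltered lists it was called in NK cells (0.45, adjusted p = 0.011, with 11.4% of genes called). It was also called there in Foxp3-positive CD4 T cells (0.65, adjusted p = 0.048, 6.97% called). Free RNA of Ikzf3 in these libraries was 169 to 201 CPM on ND and 212 to 238 CPM on MCDHFD. Its part was not tested, and nothing particular to Ikzf3 is read from these calls. Ikzf5 in CD8 T cells was 15.8, 13.3 and 15.8 CPM on ND and 18.4, 19.0 and 17.2 CPM on MCDHFD. The diets did not overlap there, as held in that direction for 5.77% of genes, but the log2 difference was 0.19 (SE 0.14, adjusted p = 0.603). Ikzf5 was also higher on MCDHFD without overlap in dendritic cells, as held for 6.24% of genes.

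Few genes of the partner complexes passed the diet test. Of the 14 tested NuRD genes 1 was lower in CD8 T cells, in Foxp3-negative CD4 T cells and in gamma delta T cells, where 1.09%, 2.39% and 0.422% of all genes were called. In each case it was Chd3, an ATP-driven remodelling subunit. It differed by -0.64 (SE 0.10, adjusted p = 0.0109) in CD8 T cells and by -0.64 (SE 0.11, adjusted p = 0.00604) in Foxp3-negative CD4 T cells. In NK cells the called NuRD gene was Cdk2ap1 (-0.73), named after its value was seen. The median of the NuRD list lay between -0.10 and 0.10 in these classes and in Foxp3-positive CD4 T and B cells. No Sin3, CtBP or CRBN ligase gene was called by edgeR in CD8, either CD4 class or B cells. No NuRD gene was called in B cells, with 4 of 14 at an unadjusted p under 0.05, beside 3227 of all 13798 genes tested. Of the Sin3 or CtBP and the CRBN ligase genes, 2 of 9 and 1 of 6 had an unadjusted p under 0.05 in B cells and at most 1 in each T cell class. DESeq2 called the ligase subunit gene Rbx1 and the NuRD gene Mta3 in B cells.

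Of the regulatory T cell list, 4 of 20 tested genes fell and none rose in Foxp3-positive cells, where 3.09% of all genes were called. The list median was -0.54 against -0.01 over all genes. They were Tnfrsf4 (OX40, -1.12, adjusted p = 0.000478), Klrg1 (a receptor of activated regulatory T cells, -1.95, adjusted p = 0.00749), Batf (an AP-1 family factor, -0.98, adjusted p = 0.0113) and Tnfrsf9 (4-1BB, -0.95, adjusted p = 0.019). In Foxp3-negative cells 4 of 20 fell, Tnfrsf4 (-1.24), the costimulatory receptor Icos (-0.68), Tnfrsf9 (-1.43) and the folate receptor family gene Izumo1r (-0.96), with a median of -0.39 and 2.39% of all genes called. In CD8 T cells 2 of 20 fell, Izumo1r (-0.83) and Tnfrsf9 (-1.50), with a median of -0.52 against 0.00 over all genes and 1.09% of all genes called. In B cells 1 of 23, Il2rb, rose (0.88), where 6.38% of all genes were called. With diet alone none of the list was called in the CD8 or CD4 classes or in B cells.

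The Ly49 and innate-like list had no called gene in CD8 T cells, with a median of -0.31. An unadjusted p under 0.05 was found for 7 of 26 of its genes and for 1504 of all 11102 genes in CD8 T cells. DESeq2 called Slamf7 and Gzmb there. In Foxp3-negative CD4 T cells 1 of 19, Xcl1, fell (-1.55), and in B cells Slamf7 fell (-0.60) and Il2rb rose. In the list of B lineage factors, 2 of 20 genes rose and 3 fell in B cells, against 6.38% of all genes called, and with diet alone none was called. Il7r, the interleukin 7 receptor of early B and naive T cells, rose by 1.26 (SE 0.13, adjusted p = 0.00243) and the coactivator gene Pou2af1 by 0.44. Summed T cell markers in the B cell gate were 65.4 to 137 CPM on ND and 112 to 246 CPM on MCDHFD. Their part in the rise of Il7r and Il2rb was not tested. The inhibitory receptor gene Cd72 (-0.78), the surrogate light chain gene Vpreb3 (-0.64) and the repressor gene Bach2 (-0.45) fell. Il7r also rose in Foxp3-positive (1.25) and Foxp3-negative CD4 T cells (0.45), where Pou2f2 (-0.77) and Tcf4 (-0.68) fell, and Vpreb3 fell in CD8 T cells (-0.94), a B lineage gene in a T cell gate.

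The pattern of each member over 54 sums, from 9 classes in each of 6 libraries, was compared with that of 8561 genes by Pearson's r of log2(CPM + 1), as a description. The sums share their libraries and depth. The genes most like Ikzf2 were Ift80 (r = 0.85), Bmp7 (0.84) and Frmd6 (0.82), and those most like Ikzf4 were Lrrc32 (0.88), Ctla4 (0.87) and Itgb8 (0.87), each with its highest mean in Foxp3-positive CD4 T cells. Closest to Ikzf1 were Tle4 (0.91), Wwox (0.89) and Pde3b (0.88), and to Ikzf3 Lax1 (0.96), Fam214a (0.95) and Ppp3cc (0.94). Ikzf5 had weaker neighbours, Pkn2 (0.76), Selenoi (0.70) and Mre11a (0.66).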

How the data were processed

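Each of the 6 libraries (3 per diet) had a table of UMI counts per gene and barcode. The counts were deposited by the authors as matrices, which the file headers attribute to Cell Ranger 9.0.1 (4 libraries, unfiltered barcodes) or 7.2.0 (2 libraries, filtered barcodes). The submitters' processing notes name Cell Ranger 9.1.0, Seurat 4.3.0 and mm10. No doublet caller was run. Cells were gated as described and the counts of each class added up within a library. A diet fit needed 10 or more cells of the class from each library. Genes passed filterByExpr, libraries were scaled by TMM, and edgeR 4.0.16 (R 4.3.3) fitted diet with the form of the list, or library as a block for splits within a library. Standard errors are the log2 value over the root of F. DESeq2 1.42.0 was an alternative. P-values were adjusted over all genes tested and called under 0.05. The labels state no pairing by replicate number. Same-numbered libraries deviated from their diet means with correlations of 0.69, -0.76 and -0.81. The filtered library is number 2 on ND and number 3 on MCDHFD. Library pairs of like list form correlated at 0.63 to 0.83 and pairs of unlike form at -0.84 to -0.69. The signs thus follow list form, and the check cannot decide whether the numbers pair the libraries. Shares are given for cells thinned to 1000 UMIs. Members and lists were chosen with earlier results of these data known. Named were the members in every class, up to 4 called genes of each list with the smallest p in the CD8, CD4 and B cell fits, and the 3 genes most like each member. The fits were also run on simulated counts. These were drawn without an effect of list form, so that run cannot decide how the fits perform where list form matters. Nothing states that libraries came from separate mice, so p-values measure the spread between libraries. The test of class by diet between CD8 and CD4 T cells rests on the values that chose the family and is not reported.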

Additional observations from a re-analysis of the deposited data

Results flagged for a closer look

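The diet effect on Ikzf2 differed between gamma delta and Foxp3-positive CD4 T cells, a pair of classes added after the data were seen. In gamma delta T cells it was -1.90 on the log2 scale relative to Foxp3-positive CD4 T cells of the same libraries (adjusted p = 4.2e-05, edgeR test of class by diet), and all 3 MCDHFD libraries lay below all 3 ND libraries in gamma delta cells while the diets overlapped in Foxp3-positive cells. The difference of -1.90 stayed between -2.12 and -1.59 with each library left out in turn, all with an adjusted p of at most 0.000522. Between 17.2% and 40.3% of the gamma delta cells per library also met the CD8 gate in which the family was chosen. A fit without gamma delta cells that had Cd8b1 or Cd4 was among 10 alternative fits of class by diet. All 10 stayed between -2.12 and -1.59, with an adjusted p of at most 0.00225. From Foxp3-negative CD4 T cells the gamma delta effect differed by -1.67, which did not pass in the main fit but passed in some alternatives. Between Foxp3-positive and Foxp3-negative cells the diet effect differed by 0.40 and did not pass in any fit.

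Barcodes with 1 to 100 UMIs in the 4 libraries with unfiltered lists, which enter no comparison, carried RNA of every member. The mean levels were 307 CPM for Ikzf1, 36.4 CPM for Ikzf2, 205 CPM for Ikzf3, 3.11 CPM for Ikzf4 and 15.7 CPM for Ikzf5.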

How the results depend on the processing

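The fall of Ikzf2 in gamma delta T cells (-2.18) was between -2.41 and -1.98 with each library left out, called each time, and had no call with diet alone (-2.15), diet alone with the replicate block (-2.28) or without cells of more than 1 lineage gate (-1.91). Ikzf2 in NK cells (-0.87) lost its call with diet alone (-0.69), with the replicate block beside list form (-0.88) and with the replicate block alone (-0.52). Leaving out single libraries gave -1.05 to -0.62 there, and DESeq2 gave no adjusted p. Ikzf4 in Foxp3-negative CD4 T cells (-1.17) lost its call with diet alone (-1.16), diet alone with the replicate block (-1.19), DESeq2 (-1.18) and without cells of more than 1 lineage gate (-0.96), and was -1.36 to -1.05 with single libraries left out. The Foxp3 split of Ikzf3 was 0.36 to 0.55 and the Klra7 split of Ikzf2 2.15 to 2.56 with single libraries left out. The sign of the uncalled Ikzf2 difference in B cells turned to 0.075 in the 4 libraries with unfiltered lists and 0.13 without cells of more than 1 lineage gate, and ran from -0.40 to 0.081 with single libraries left out. That of Ikzf1 was -0.020 to 0.18 in gamma delta T cells with single libraries left out and -0.032 in dendritic cells without cells of more than 1 lineage gate. In each case the cause was not tested. The count of genes called in B cells, 880, ran from 0 with diet alone to 3210 in the 4 libraries with unfiltered lists. In gamma delta T cells the count, 24, was 0 with diet alone, 2 with DESeq2, 4 in the 4 libraries with unfiltered lists and 69 with no filter on low counts. Replicate numbers are shared between the diets without a stated pairing, and with the block beside list form Ikzf2 in Foxp3-negative CD4 T cells was called (-1.10, adjusted p = 5.59e-05). The gamma delta class rests on 26 to 64 cells per library and the Klra7-positive subset on 8 to 18, too few for a diet fit, so small differences were not detectable at this depth.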

Other observations

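Members also differed within classes, in gates set after the values of the classes had been seen, so these are descriptions without a test. Among B cells, those with Cd9 and Cr2, genes of marginal zone cells, had 361 to 618 CPM of Ikzf3, below the 478 to 857 CPM of cells with the follicular gene Fcer2a and without Cd9 in 6 of 6 libraries. Ikzf1 went the other way, with 465 to 856 CPM against 380 to 658 CPM, also in 6 of 6 libraries.

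In NK cells, the less mature gate with Cd27 and without Itgam had 147, 11.9 and 95.6 CPM of Ikzf2 on ND and 83.3, 67.4 and 0 CPM on MCDHFD. The mature gate with Itgam and without Cd27 had 40.3, 5.07 and 21.7 CPM on ND and 9.25, 11.3 and 0 CPM on MCDHFD, lower than the less mature gate in each of the 5 libraries with a UMI. The gates hold as few as 7 cells per library. Among dendritic cells, those with the plasmacytoid gene Siglech had 37.2 to 119 CPM of Ikzf2 in 5 libraries and no UMI in the 3 cells of MCDHFD replicate 3, against 0 to 9.70 CPM in cells with neither Siglech nor Xcr1.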
